A study of Mus musculus with 24 samples.

Results

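The Schlafen family was followed by every probe whose accession names Slfn1, Slfn2, Slfn3, Slfn4, Slfn5, Slfn8 or Slfn9 on single-colour Agilent mouse arrays. All 7 genes had a probe, of 22911 genes named on the array, and together they had 11 probes. Of these, 8 probes in 5 genes (Slfn2, Slfn3, Slfn5, Slfn8 and Slfn9) were bright enough to be tested among 14425 genes. Slfn2, Slfn8 and Slfn9 were well above background in every sample of every group, whereas Slfn3 and Slfn5 entered the test only through the samples at 1000 IU/ml IFN epsilon. A higher value in that group is therefore built into the testing of these 2 genes. Counts of members are given over the other 3, except in the closing section on processing. The cells were ID8, a mouse ovarian surface epithelial line that forms ovarian tumours in mice, and no group carried a genetic change by its labels. They were treated for 3 h with recombinant mouse IFN epsilon at 10, 100 or 1000 IU/ml, with recombinant mouse IFN beta at the same doses, or with PBS vehicle (untreated). IFN epsilon and IFN beta are both type I interferons and use the same receptor. The first is produced without infection in the lining of the uterus and other female reproductive organs, and the second by most cell types once they sense a virus. Each group had 3 samples, made on separate dates, except IFN beta at 10 and at 100 IU/ml, which had 2 each. The third sample of these 2 groups is labelled as excluded, and the reason given is unusually strong induction of interferon-stimulated genes. That exclusion was made on the kind of readout described here, so these 2 arrays enter no comparison and their values are given apart.

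Schlafen proteins share an N-terminal core domain that in several members binds or cleaves RNA. In the mouse, Slfn1 and Slfn2 are short forms made of little more than this core, Slfn3 and Slfn4 are intermediate forms, and Slfn5, Slfn8 and Slfn9 are long forms with a helicase-like C-terminal part. Family members are known as interferon-inducible genes that restrain cell growth and the translation of viral RNA, largely from work on mouse lymphoid and myeloid cells and on the human relative SLFN11. Type I interferons act through the receptor Ifnar1/Ifnar2, and the signal ends at the interferon-stimulated response element in the promoters of their target genes.

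The promoters of 4 members are shown because these genes cover the responses described below: Slfn8 and Slfn9, which moved together, Slfn5, which was well above background in all samples only at the top dose of IFN epsilon, and Slfn2. Each line gives the 250 bases before the transcription start, 5′ to 3′ on the gene's own strand, from RefSeq on GRCm38.p6. Capitals mark the core of the response element, read on either strand: GAAA, any 2 bases, then GAAA.
Slfn8, chr11:83020811-83021060, minus strand: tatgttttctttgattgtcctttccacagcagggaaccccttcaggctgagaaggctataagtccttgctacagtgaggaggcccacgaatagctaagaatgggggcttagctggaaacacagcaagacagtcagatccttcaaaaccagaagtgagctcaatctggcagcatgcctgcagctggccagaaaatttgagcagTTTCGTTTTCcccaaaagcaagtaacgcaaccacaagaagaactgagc
Slfn9, chr11:82991831-82992080, minus strand: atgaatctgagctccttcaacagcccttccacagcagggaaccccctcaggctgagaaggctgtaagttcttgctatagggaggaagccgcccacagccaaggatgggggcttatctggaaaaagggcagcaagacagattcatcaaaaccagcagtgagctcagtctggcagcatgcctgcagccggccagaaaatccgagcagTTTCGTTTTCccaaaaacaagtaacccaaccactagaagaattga
Slfn5, chr11:82951852-82952101, plus strand: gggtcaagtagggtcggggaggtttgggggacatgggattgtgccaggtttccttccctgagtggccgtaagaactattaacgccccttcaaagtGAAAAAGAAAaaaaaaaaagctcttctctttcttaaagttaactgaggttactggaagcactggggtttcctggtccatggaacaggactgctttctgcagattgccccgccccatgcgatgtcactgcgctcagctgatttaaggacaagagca
Slfn2, chr11:83064862-83065111, plus strand: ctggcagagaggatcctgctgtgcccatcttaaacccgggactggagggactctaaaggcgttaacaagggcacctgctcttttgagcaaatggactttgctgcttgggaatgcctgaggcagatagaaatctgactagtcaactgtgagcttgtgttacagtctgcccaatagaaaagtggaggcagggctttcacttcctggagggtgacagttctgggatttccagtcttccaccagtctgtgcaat

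All 7 members had a promoter entry, and 3 of them (Slfn5, Slfn8 and Slfn9) held this core on either strand, against 3.46% of 27025 genes in the same table. In Slfn9 the core lay 45 to 36 bases before the start and read from the opposite strand. Slfn8 has 2 annotated starts, and the same core lay 48 to 39 bases before the one shown and 136 to 127 bases before the other. In Slfn5 the core lay farther out, at 155 to 146 bases before the start. The windows of Slfn8 and Slfn9 shown here were identical at 80.2% of aligned positions, against 40.9% for the window of the other Slfn8 start. Slfn2 held neither this core nor a form shorter by the last A, which occurs in 8.18% of genes and overlaps the longer core wherever that is present. A form shorter by an A in the first GAAA was not searched, and its share over all genes is not known. The Slfn2 window shown holds such a run on the opposite strand (tttcacttc), so response-element-like letters are not excluded there. The gamma-activated motif (TTC, any 3 bases, then GAA, which reads the same on both strands), present in 8.13% of genes, was found in 0 of 7 members. A match is a run of letters and not a shown binding site.

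Intensities are given scaled, with the 75th percentile of each array set to 1000, so values of one probe can be compared across samples but not with those of another probe. The unscaled 75th percentile was between 643.5 and 1221 on the 22 arrays used. It was 643.5 to 844.3 on the third date and 955.2 to 1221 on the first and second dates. By the scanner's own test, 50.09 to 58.84% of probe spots were well above background. The ID8 label was checked against markers: Krt8, Krt18, Krt19, Wt1 and Msln were well above background on 22 of 22 arrays, and Pax8 on 2. The fibroblast markers Dcn, Col3a1 and Pdgfra and the endothelial marker Kdr were also well above background on 22 of 22 arrays. The endothelial marker Pecam1 was well above background on 21 arrays and Tek on 1, and Lum and Cdh5 on 0. Of 14 leukocyte markers, 5 (Itgam, Cd68, Csf1r, Cd4 and Cd3e) were well above background on 22 of 22 arrays, while Ptprc and Lyz2 were well above background on 0 arrays. The summed leukocyte signal ran from 3400 to 4450 after 1000 IU/ml IFN epsilon, from 3240 to 4470 after 1000 IU/ml IFN beta and from 3910 to 4220 in untreated cells. Bright enough to be tested were 5 of 14 leukocyte, 2 of 4 endothelial, 3 of 4 fibroblast and 10 of 11 epithelial and mesothelial markers. None of these passed the test in any comparison with untreated cells. Over all genes 0% to 2.24% were called higher there, so counts of 0 are near the background.

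Of the 3 members measured in untreated cells, Slfn8 had the largest fold change at 1000 IU/ml of either interferon. Its probe measured 80.7, 68.5 and 59.4 in untreated cells, 244, 329 and 498 at 10 IU/ml IFN epsilon, 842, 2020 and 1980 at 100 IU/ml and 3010, 3540 and 3660 at 1000 IU/ml. With IFN beta it measured 101 and 81 at 10 IU/ml, 268 and 318 at 100 IU/ml and 1160, 2060 and 5810 at 1000 IU/ml. Every treated group lay above the untreated samples, 10 IU/ml IFN beta only just (81 against 80.7), and the IFN epsilon groups did not overlap each other. The fold change was 49.2 at 1000 IU/ml IFN epsilon (log2 5.62 ± 0.47 SE, n = 3 each, limma adjusted p = 4.67e-06) and 34.8 at 1000 IU/ml IFN beta (log2 5.12 ± 0.47, adjusted p = 1.67e-05). At 100 IU/ml IFN epsilon it was 21.7 (log2 4.44 ± 0.47, adjusted p = 8.28e-05). In bulk RNA, a change in the share of cells that make a transcript and a change in its amount per cell cannot be told apart. A second Slfn8 probe was dimmer and not well above background in untreated cells, where it measured 4.31, 4.57 and 6.72. It measured 69.9, 128 and 147 after 1000 IU/ml IFN epsilon and 38.6, 107 and 209 after 1000 IU/ml IFN beta, so both probes were higher than in untreated cells in every sample at the top dose.

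Slfn9, the neighbouring long form, followed Slfn8 closely. Its intensity was 605, 493 and 406 in untreated cells, then 1280, 1420 and 1480, then 2790, 4260 and 3790, then 6220, 6960 and 5490 at 10, 100 and 1000 IU/ml IFN epsilon. With IFN beta it was 763 and 556 at 10 IU/ml, 1640 and 1100 at 100 IU/ml and 3300, 3920 and 8990 at 1000 IU/ml. The groups of the IFN epsilon series did not overlap, whereas the 10 IU/ml IFN beta samples overlapped the untreated ones. Slfn9 rose 12.5-fold at 1000 IU/ml IFN epsilon (log2 3.65 ± 0.31, adjusted p = 5.21e-06) and 9.87-fold at 1000 IU/ml IFN beta (log2 3.30 ± 0.31, adjusted p = 1.79e-05). At 100 IU/ml IFN epsilon the rise was 7.20-fold (log2 2.85 ± 0.31, adjusted p = 1e-04). The second Slfn9 probe, well above background on 22 of 22 arrays, gave log2 fold changes of 3.27 ± 0.34 and 2.82 ± 0.34 at the top dose of IFN epsilon and of IFN beta.

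Over the 19 samples the log2 values of Slfn8 and Slfn9 had a Pearson r of 0.99, a description over samples that share their dose groups and dates. Slfn8, Slfn9 and the pseudogene Slfn10-ps between Slfn8 and Slfn2 are close relatives, and whether a transcript of one binds the probe of another was not tested. Slfn10-ps, which is no member, had log2 fold changes of 3.72 ± 0.67 at 1000 IU/ml IFN epsilon (adjusted p = 0.00481) and 3.35 ± 0.67 at 1000 IU/ml IFN beta (adjusted p = 0.0155). On one array, 10 IU/ml IFN epsilon on the third date, Slfn10-ps measured 49.8, against 125 in untreated cells of that date, whereas Slfn8 on the same array measured 498, against 59.4. A second, dimmer Slfn10-ps probe was not called at 1000 IU/ml of IFN epsilon or IFN beta (adjusted p = 0.275 and 0.615), and on that array it measured 17.7, against 5.25 in untreated cells of that date, both not well above background.

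**Figure D1:**
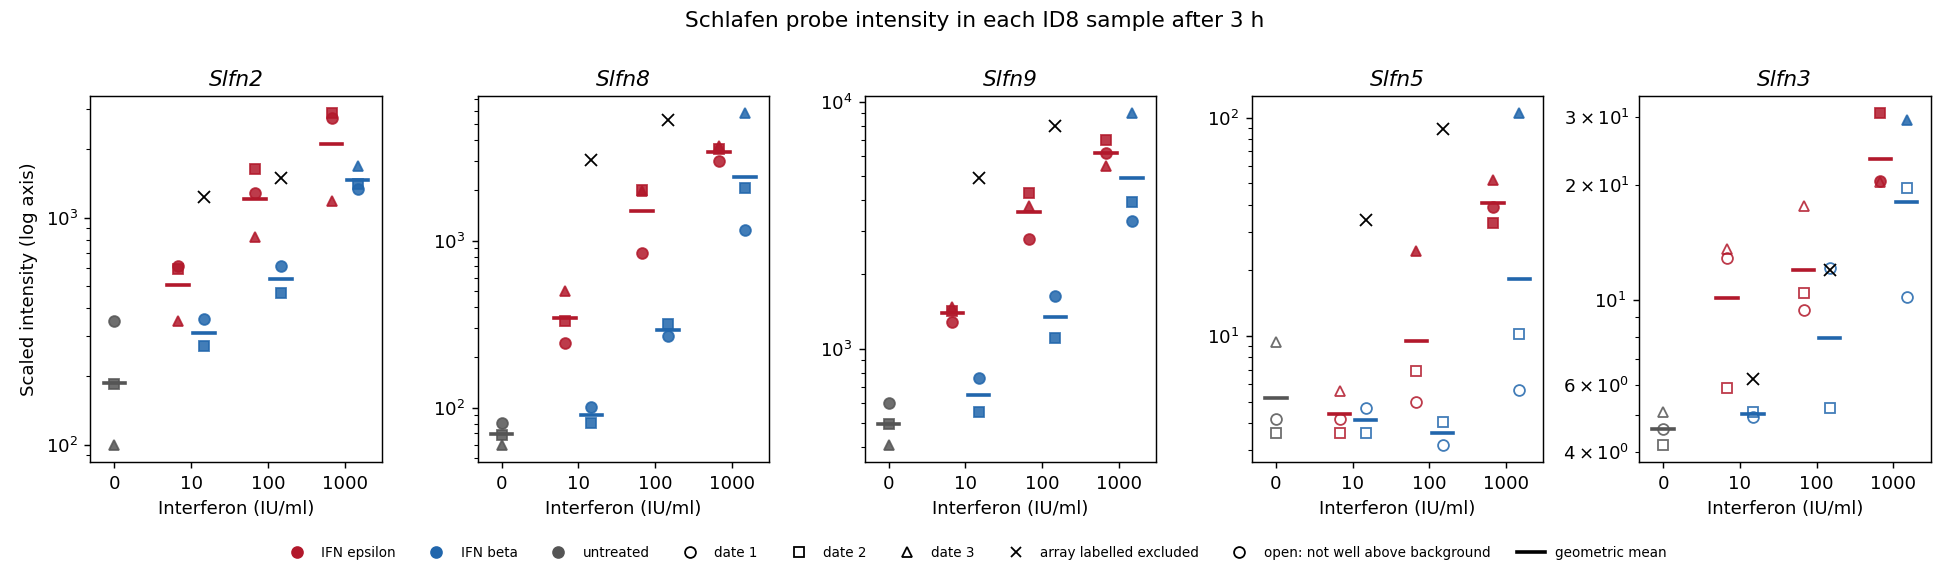
Scaled intensity (log axis) of the probe that stands for each tested Schlafen gene, by interferon dose, in each sample (symbols for dates, colours for interferon or untreated, bars for geometric means, open symbols for values not well above background, crosses for the 2 arrays labelled excluded). Slfn8 ran from 59.4 to 80.7 in untreated cells and from 3010 to 3660 at 1000 IU/ml IFN epsilon, and the IFN beta point of date 3 at 1000 IU/ml is the highest IFN beta value in each panel, crosses included.

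Slfn5 is the remaining long form and in human cells a nuclear protein linked to interferon signalling. It was well above background in every sample of a group only at 1000 IU/ml IFN epsilon. In untreated cells it measured 4.19, 3.6 and 9.38, at 10 IU/ml IFN epsilon 4.17, 3.58 and 5.63, at 100 IU/ml 4.99, 6.91 and 24.4 and at 1000 IU/ml 39, 33 and 51.9. With IFN beta it measured 4.67 and 3.61 at 10 IU/ml, 3.16 and 4.05 at 100 IU/ml and 5.64, 10.2 and 105 at 1000 IU/ml. The 3 samples at 1000 IU/ml IFN epsilon were all well above background and did not overlap the untreated ones. At 100 IU/ml IFN epsilon and at 1000 IU/ml IFN beta, only the third-date sample was well above background. Slfn5 was at least 2-fold higher at 1000 IU/ml IFN epsilon than in untreated cells, with an adjusted p of 0.114, and with the date as a replicate block this became 0.0067, and without the third-date sample at 1000 IU/ml IFN beta 0.00295. Because the probe entered the test through this group, these values are a description and are not counted with the other members. The same holds for its step from 10 to 1000 IU/ml IFN epsilon, set against samples not well above background, which passed with the replicate block (adjusted p = 0.00655) and without the first-date or the third-date sample at 1000 IU/ml IFN beta (0.0407 and 0.00257). The bound compares the treated mean with the lowest signal that counted as well above background on the untreated arrays. Its second probe measured 32.9, 29.3 and 30.9 at 1000 IU/ml IFN epsilon and 3.93, 5.89 and 52.5 at 1000 IU/ml IFN beta, and the third probe was well above background on 0 of 22 arrays.

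Slfn2 is the short form whose loss in mice leaves T cells unable to keep a resting state. Untreated cells measured 351, 186 and 99.5, and IFN epsilon gave 610, 593 and 352 at 10 IU/ml, 1290, 1640 and 825 at 100 IU/ml and 2750, 2890 and 1180 at 1000 IU/ml. IFN beta gave 357 and 271 at 10 IU/ml, 610 and 468 at 100 IU/ml and 1340, 1410 and 1680 at 1000 IU/ml. The third-date sample was the lowest in the untreated group and in each IFN epsilon group, but the highest at 1000 IU/ml IFN beta. Slfn2 rose 11.3-fold at 1000 IU/ml IFN epsilon (log2 3.50 ± 0.43, adjusted p = 0.000168), 6.45-fold at 100 IU/ml IFN epsilon (log2 2.69 ± 0.43, adjusted p = 0.00317) and 7.87-fold at 1000 IU/ml IFN beta (log2 2.98 ± 0.43, adjusted p = 0.00101). Fitted only to the groups compared, the last 2 calls were lost (adjusted p = 0.125 and 0.0861). Slfn1, the other short form, first described as a brake on thymocyte growth, was well above background on 0 of 22 arrays.

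Slfn3 is an intermediate form described in mouse T cells and in the gut lining of rats. It was well above background on 3 of 22 arrays, 2 at 1000 IU/ml IFN epsilon and 1 at 1000 IU/ml IFN beta. It measured 20.4, 30.8 and 20.3 at 1000 IU/ml IFN epsilon and 10.2, 19.6 and 29.6 at 1000 IU/ml IFN beta, against 4.60, 4.17 and 5.08 in untreated cells. Its test passed at both top doses (adjusted p = 0.00463 and 0.0242), but the bound was only at least 1.15-fold higher for IFN epsilon, and none could be given for IFN beta. As for Slfn5, the filter was passed only through 1000 IU/ml IFN epsilon, so this call is a description. The IFN epsilon call was lost with median scaling, quantile normalization, normexp correction and the deposited table, with adjusted p values of 0.068, 0.297, 0.52 and 0.079. The IFN beta call was lost in 11 of 31 alternatives, the same 4 settings among them. It was also lost without any one of the 3 untreated samples (adjusted p from 0.0744 to 0.113) and without the second-date or the third-date sample at 1000 IU/ml IFN beta (0.101 and 0.159). Its step from 10 to 1000 IU/ml IFN beta passed without the first-date sample at 1000 IU/ml (adjusted p = 0.0177), against samples not well above background. Slfn4, the intermediate form known from mouse macrophages and other myeloid cells, was well above background on 0 of 22 arrays, as were Slfn14 and Slfnl1 outside the member list.

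Of Slfn2, Slfn8 and Slfn9, 3 of 3 rose at 1000 IU/ml IFN epsilon, where 2.24% of all tested genes rose. At 100 IU/ml IFN epsilon 3 of 3 rose, where 1.05% of all genes did. At 10 IU/ml IFN epsilon limma called 0 of 3, against 0.201% of all genes called higher, while 3 of 3 had an unadjusted p under 0.05, against 1.05% of all genes. The closest were Slfn8 (log2 2.31 ± 0.47, adjusted p = 0.0873) and Slfn9 (log2 1.49 ± 0.31, adjusted p = 0.0973). With the date as a replicate block, Slfn8 passed at this dose (adjusted p = 0.0208, with 0.499% of all genes called higher). Without the first-date or without the third-date sample at 1000 IU/ml IFN beta both Slfn8 (0.0251 and 0.00545) and Slfn9 (0.0482 and 0.00371) passed. Neither sample belongs to the groups compared, and each enters only through the shared estimate of spread. No share of all genes is given for the fits, here and below, that leave out 1 sample. Passes in such fits therefore cannot be told from a gain of calls across all genes.

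For IFN beta, 3 of 3 rose at 1000 IU/ml, where 1.58% of all genes were called higher. At 100 IU/ml limma called 0 of 3, against 0.111% of all genes, and 3 of 3 had an unadjusted p under 0.05, against 1.27% of all genes. Slfn8 had a log2 fold change of 2.08 ± 0.53 (adjusted p = 0.543) and Slfn9 of 1.44 ± 0.35 (adjusted p = 0.392), and Slfn9 passed without the third-date sample at 1000 IU/ml IFN beta (adjusted p = 0.0223). Untreated cells have a third-date sample and this IFN beta group has none. With the date as a replicate block the values were 2.29 ± 0.46 for Slfn8 and 1.5 ± 0.37 for Slfn9, neither called. At 10 IU/ml 0 of 3 were called by limma and 0 had an unadjusted p under 0.05, with 0% and 0.333% of all genes. There the interval of the log2 difference from untreated cells ran from -0.74 to 1.52 for Slfn8 and from -0.34 to 1.14 for Slfn9 (95% confidence).

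Separation of the samples was also counted. After IFN epsilon, every treated sample exceeded every untreated one for 3 of these 3 members at 10, at 100 and at 1000 IU/ml, against 1.77%, 3.29% and 6.2% of all genes. After IFN beta this held for 1, 3 and 3 of them at 10, 100 and 1000 IU/ml, against 5.05%, 4.2% and 5.42% of all genes.

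**Figure D2:**
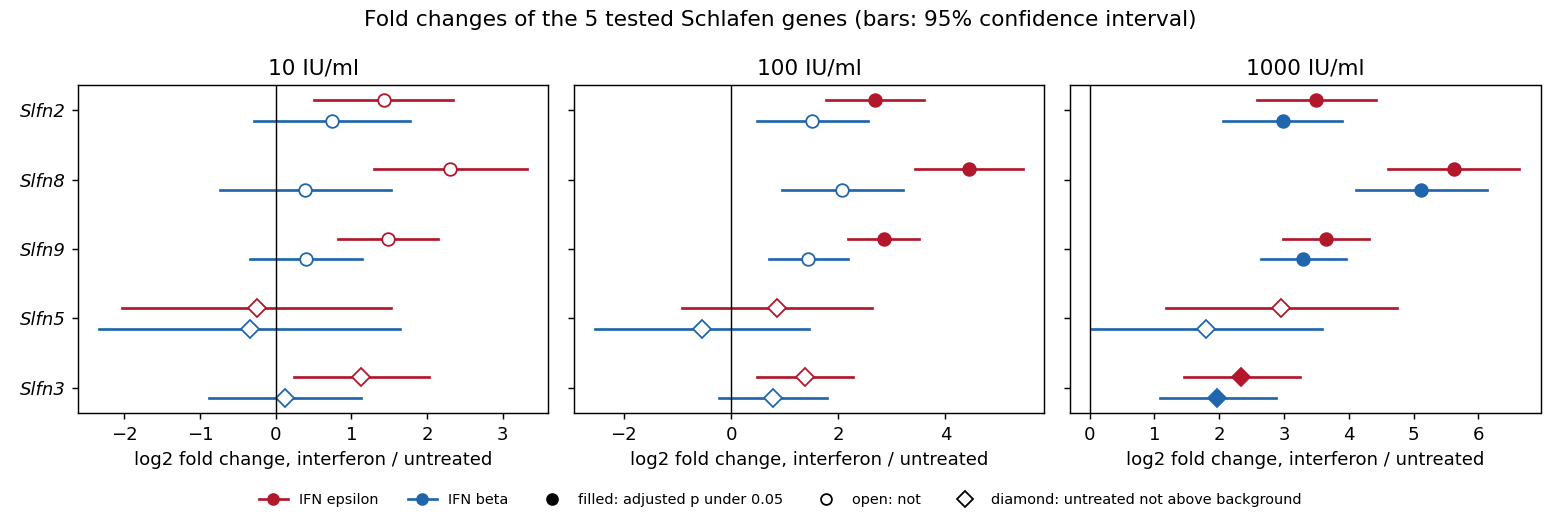
Log2 fold change over untreated cells of the 5 tested Schlafen genes at each dose, with 95% confidence intervals (filled points, adjusted p under 0.05). Of the 3 genes drawn as circles, Slfn8 lies farthest right at 1000 IU/ml, at 5.62 for IFN epsilon and 5.12 for IFN beta, and Slfn3 and Slfn5 (diamonds) are fitted against untreated samples that were not above background.

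Between doses of IFN epsilon, 3 of these 3 members were higher at 1000 than at 10 IU/ml, where 1.39% of all genes were. The log2 differences were 3.31 ± 0.47 for Slfn8 (adjusted p = 0.00304), 2.15 ± 0.31 for Slfn9 (adjusted p = 0.00304) and 2.07 ± 0.43 for Slfn2 (adjusted p = 0.0262). The Slfn2 call was lost without the first-date or second-date sample at 1000 IU/ml, or without any one of the 3 samples at 10 IU/ml (adjusted p from 0.0728 to 0.142). It was also lost when only the groups compared were fitted (0.129) and with median scaling (0.3), which ended the Slfn9 call too (0.0774). From 10 to 100 IU/ml IFN epsilon limma called 0 of 3, against 0.0693% of all genes, and 3 had an unadjusted p under 0.05, against 2.71% of all genes. Slfn8 passed this step with the replicate block (adjusted p = 0.0494, with 0.367% of all genes), and Slfn8 and Slfn9 passed it without the third-date sample at 1000 IU/ml IFN beta (0.0137 and 0.0116). From 100 to 1000 IU/ml 0 of 3 were called, against 0% of all genes, and 2 had an unadjusted p under 0.05, against 2.99%.

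Between doses of IFN beta, Slfn2, Slfn8 and Slfn9 were higher at 1000 than at 10 IU/ml, 3 of 3 against 1.13% of all genes. Slfn8 differed by 4.73 ± 0.53 (log2, adjusted p = 0.000189), Slfn9 by 2.91 ± 0.35 (adjusted p = 0.000323) and Slfn2 by 2.24 ± 0.48 (adjusted p = 0.036). The Slfn2 call ended in 11 of the 19 fits that left out 1 sample, with adjusted p values up to 0.41 (without the second-date sample at 10 IU/ml). Fitted only to the groups compared, none of the 3 calls held (adjusted p = 0.174, 0.233 and 0.0653 for Slfn8, Slfn9 and Slfn2). From 100 to 1000 IU/ml, 2 of 3 rose, Slfn8 (log2 3.04 ± 0.53, adjusted p = 0.0214) and Slfn9 (log2 1.86 ± 0.35, adjusted p = 0.0283), against 0.499% of all genes. Both calls ended without the first-date sample at 100 IU/ml (adjusted p = 0.358 for Slfn8 and 0.229 for Slfn9) and without the second-date one (0.0742 and 0.188). With the replicate block Slfn2 passed as well (adjusted p = 0.0445, with 0.88% of all genes). In these comparisons the third date has an IFN beta sample only at 1000 IU/ml. Without that sample the log2 difference from 10 IU/ml was 4.09 for Slfn8, 2.47 for Slfn9 and 2.14 for Slfn2. The difference from 100 IU/ml was then 2.4 for Slfn8 and 1.42 for Slfn9. The Slfn8 and Slfn9 calls held in that fit, and the Slfn2 call did not. From 10 to 100 IU/ml 0 of 3 were called by limma, against 0% of all genes, and 2 had an unadjusted p under 0.05, against 0.922%.

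The interferons were then compared at equal dose. Of Slfn2, Slfn8 and Slfn9, 0 of 3 were called at 10, 100 or 1000 IU/ml, where 0.0971%, 0.0901% and 0% of all genes were called higher with IFN epsilon. An unadjusted p under 0.05 was found for 2, 3 and 0 of them, against 0.95%, 2.91% and 1.33% of all genes. The IFN epsilon samples lay wholly above the IFN beta ones for 2, 3 and 0 of them, against 2.84%, 5.19% and 1.28% of all genes. At 100 IU/ml Slfn8 was 5.13-fold higher with IFN epsilon (log2 2.36 ± 0.53, interval 1.23 to 3.49, adjusted p = 0.134), and Slfn9 2.65-fold (log2 1.41 ± 0.35, interval 0.67 to 2.15, adjusted p = 0.227). Both passed without the third-date sample at 1000 IU/ml IFN beta, which enters this fit only through the shared estimate of spread (adjusted p = 0.0105 for Slfn8 and 0.0118 for Slfn9). At 10 IU/ml the difference was 1.92 ± 0.53 for Slfn8 (log2, adjusted p = 0.943) and 1.1 ± 0.35 for Slfn9 (adjusted p = 1). At 1000 IU/ml it was 0.50 for Slfn8 (interval -0.51 to 1.51), 0.34 for Slfn9 (-0.32 to 1.01) and 0.52 for Slfn2 (-0.40 to 1.44). At 10 and 100 IU/ml only the IFN epsilon groups include the third date, so these differences mix date with interferon. With the date as a replicate block, those at 100 IU/ml were 2.15 ± 0.46 for Slfn8 (limma adjusted p = 0.0957), 1.35 ± 0.37 for Slfn9 (0.293) and 1.43 ± 0.35 for Slfn2 (0.209). At 10 IU/ml they were 1.71 ± 0.46, 1.04 ± 0.37 and 0.95 ± 0.35, none called.

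Within dates, the comparison at 1000 IU/ml split. IFN epsilon minus IFN beta was 1.38 and 0.79 for Slfn8 on the first and second dates and -0.67 on the third (log2). For Slfn9 it was 0.91, 0.83 and -0.71, and for Slfn2 1.03, 1.04 and -0.51. These 3 members were therefore higher with IFN epsilon on 2 dates and higher with IFN beta on the third. For Slfn5 and Slfn3 the IFN beta samples of the first and second dates were not well above background, so no difference is given there. On those dates Slfn5 measured 39 and 33 with IFN epsilon, well above background, against 5.64 and 10.2 with IFN beta. On the third date Slfn5 measured 51.9 with IFN epsilon and 105 with IFN beta, a log2 difference of -1.01. The Slfn5 values are a description, since the filter was passed through 1000 IU/ml IFN epsilon. Without the third-date sample at 1000 IU/ml IFN beta, the pooled difference was 1.14 ± 0.38 for Slfn8 (adjusted p = 1) and 0.78 ± 0.23 for Slfn9 (adjusted p = 0.786), so no call followed. At 100 IU/ml, where IFN beta has samples on 2 dates, the within-date differences were 1.65 and 2.67 for Slfn8, 0.77 and 1.96 for Slfn9 and 1.07 and 1.81 for Slfn2. At 10 IU/ml they were 1.27 and 2.02, 0.75 and 1.36, and 0.77 and 1.13 for the same genes.

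**Figure D3:**
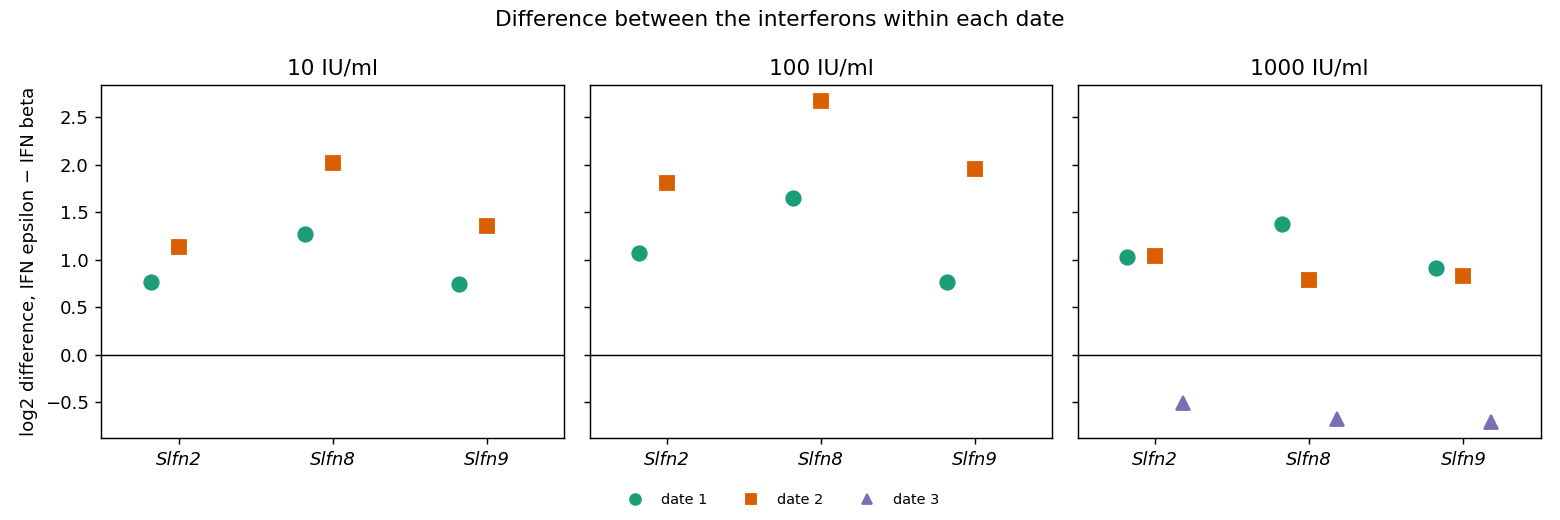
Log2 difference between IFN epsilon and IFN beta of Slfn2, Slfn8 and Slfn9 within each date, by dose, with 1 sample per interferon behind each point. At 1000 IU/ml the 3 genes lie above 0 on dates 1 and 2 and below 0 on date 3, and at 10 and 100 IU/ml date 3 has no point.

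The step from 10 to 1000 IU/ml was also compared between the interferons. The third date enters the IFN beta step only at 1000 IU/ml, where it is the highest sample for Slfn2, Slfn8 and Slfn9. Its 10 IU/ml array is labelled excluded, so the steps of the interferons do not cover the same dates. The difference of differences, the IFN epsilon step minus the IFN beta step, was -1.42 ± 0.71 for Slfn8 (log2, adjusted p = 1), -0.75 ± 0.46 for Slfn9 (adjusted p = 1) and -0.17 ± 0.65 for Slfn2 (adjusted p = 1). Limma called 0 of 3, against 0% of all genes called higher and 0% called lower, and 0 had an unadjusted p under 0.05, against 0.908% of all genes. With the date as a replicate block the values were -1.21 ± 0.61 for Slfn8, -0.69 ± 0.49 for Slfn9 and -0.43 ± 0.47 for Slfn2, none called.

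Along chromosome 11, in the gene order of RefSeq on GRCm38.p6, the family runs Slfn5, Slfn9, Slfn8, Slfn10-ps, Slfn2, Slfn1, Slfn4, Slfn3 and Slfn14, so genes below background (Slfn1 and Slfn4) lie between Slfn2 and Slfn3. Of the 8 protein-coding genes nearest to this block, 4 on each side, 6 were tested and 0 were called by limma in any comparison with untreated cells. Over all genes 0% to 2.24% were called higher in these comparisons, so a count of 0 of 6 is near the background. With the date as a replicate block, 1 of the 6 was called higher at 1000 than at 10 IU/ml IFN epsilon. Without the block 1.39% of all genes were called higher in that comparison. At 1000 IU/ml IFN epsilon Unc45b, a muscle chaperone gene next to Slfn5, had a log2 fold change of 0.55 ± 0.41 (adjusted p = 0.998), and Ap2b1, a clathrin adaptor gene on the far side, 0.15 ± 0.19 (adjusted p = 1).

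**Figure D4:**
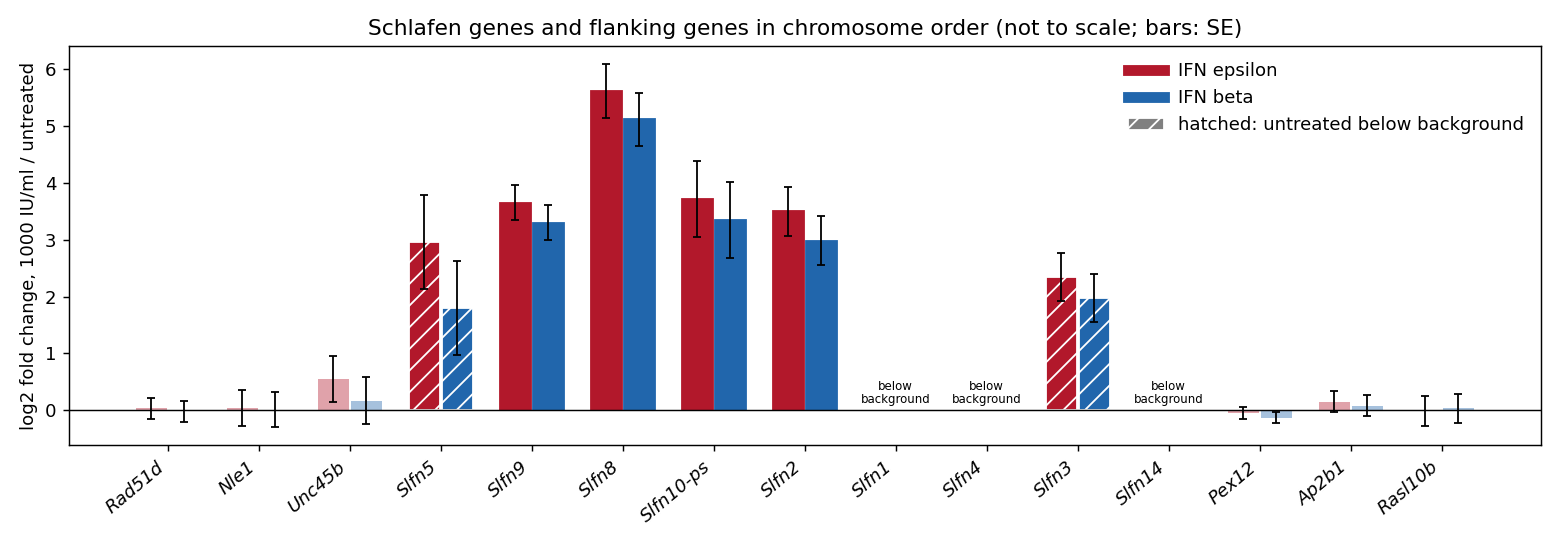
Log2 fold change over untreated cells at 1000 IU/ml (bars, with SE) of the Schlafen genes and the 6 tested flanking genes in chromosome order, not to scale. The flanking genes lie near 0 and the tallest bar is Slfn8 at 5.62 for IFN epsilon, while Slfn3 and Slfn5 (hatched) are fitted against untreated samples that were not above background.

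Of 13 genes of the interferon receptor and its signalling, 5 rose at 1000 IU/ml of each interferon, where 2.24% (IFN epsilon) and 1.58% (IFN beta) of all genes rose. With the replicate block 6 did, where 4.53% and 2.79% of all genes rose. The list had a median log2 fold change of 0.97 for IFN epsilon and 1.1 for IFN beta, against -0.05 and -0.04 over all genes tested. Usp18, which limits receptor signalling, changed by 5.63 ± 0.44 with IFN epsilon (log2, adjusted p = 2.37e-06), and Irf7, a transcription factor of the interferon response, by 3.89 ± 0.35 (adjusted p = 1.07e-05). Stat2, which carries the signal to the nucleus, changed by 2.91 ± 0.33 (adjusted p = 8.51e-05). Of 13 interferon-induced genes that cut RNA or control translation, 13 rose with IFN epsilon and 12 with IFN beta at 1000 IU/ml (13 with the replicate block), against the same shares of all genes, with medians of 2.88 and 2.86. Among them Oas2 and Oas3, which make the activator of RNase L, changed by 5.60 ± 0.36 and 5.51 ± 0.27 with IFN epsilon (adjusted p = 2.69e-07 and 1e-07). Ifit3 and Ifit1, of the family whose Ifit1 protein binds viral RNA, changed by 7.94 ± 0.91 and 7.10 ± 0.78 (adjusted p = 8.51e-05 and 5.75e-05). Samhd1 was the gene of this list not called with IFN beta (log2 1.19 ± 0.31, adjusted p = 0.0991), and is named here after its values were seen.

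Because the family is known for restraining growth, 20 cell cycle and growth genes were read beside it, of which 19 were tested. Limma called 0 of them higher and 0 lower in each comparison with untreated cells at 3 h. Over all genes 0% to 2.24% were called higher in these comparisons, and at most 0.0693% (IFN epsilon) and 0.0139% (IFN beta) lower, so a count of 0 of 19 is near the background. Their median log2 fold change was -0.08 at 1000 IU/ml IFN epsilon and 0.01 at 1000 IU/ml IFN beta, against -0.05 and -0.04 over all genes. Cdk2, which drives entry into S phase, had the largest absolute value of the list at 1000 IU/ml IFN epsilon, -0.34 ± 0.22 (log2, adjusted p = 0.93), and Ccnd2, a G1 cyclin, had 0.25 ± 0.23 (adjusted p = 1).

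The genes outside the family with the most similar pattern over the 19 samples were named for each tested member by Pearson r of the log2 values. For Slfn8 these were Tap1, a peptide transporter of antigen presentation (0.996), and the interferon-induced GTPase genes Gvin1 (0.995) and Gm1966 (0.995). For Slfn9 they were Ifi204 (0.989), Herc6 (0.986) and Pcdh17 (0.986). Slfn2 was closest to the oligoadenylate synthetase gene Oas1a (0.986), to 4930599N23Rik (0.976) and to Oas1g (0.974). Slfn5 was closest to the chemokine gene Cxcl9 (0.97), Apod (0.964) and Ifi209 (0.959), and Slfn3 to Rnf31 (0.949), Nub1 (0.934) and Naa20 (0.927). All of these values share the same doses and dates, and those of Slfn3 and Slfn5 include samples below background. Within the family, Slfn2 had r = 0.907 with Slfn8 and 0.942 with Slfn9, and Slfn5 and Slfn2 were the least alike pair of tested members at 0.583.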

How the data were processed

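Total RNA of 21 samples was measured on 24 single-colour Cy3 Agilent arrays (3 slides of 8), of which 22 arrays, from 19 samples, were used. Per the file headers, the deposited scanner files hold processed signal intensity from Agilent Feature Extraction, and per the submitters' processing notes Feature Extraction 11.0.1.1, R 3.6.1 and limma 3.42.0 were used. The authors' deposited log2 table of the same arrays served as an alternative; its scaling is not given in the sources used here, it correlated with log2 scanner signal at r of 0.9885 to 0.995 per array, and its column medians lay between 5.525 and 5.542. Precision rests on 2 or 3 samples per group.

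Here log2 processed signal was centred on each array's 75th percentile (set to 1000), control and outlier spots were left out, and the 2 arrays of each untreated sample were averaged. Probes had to pass the scanner's background test in 2 or more samples of any group, and each gene was represented by its brightest such probe. Accessions were named through RefSeq (GRCm38.p6), 32994 of 56605 probes. One limma 3.58.1 fit (R 4.3.3) covered 7 groups with 12 residual degrees of freedom, with Benjamini-Hochberg adjustment over 14425 genes and a threshold of 0.05. The method was tested on simulated data with independent noise in each sample and no date effect. That test therefore does not cover the deviations that samples of the same date share.

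Replicate numbers mark dates, since the series text says replicates were made on separate dates. Same-numbered samples had deviations from group means that correlated at a median r of 0.473 (-0.0617 to 0.766, 46 of 52 pairs over 0.1), against -0.209 for different numbers, and 19 of 19 samples correlated best with their own number. Alternatives were the date or the slide as a block, other scaling, background correction, filters, probe rules and sample sets. The normexp alternative used the median spot signal, since the files used carry no mean signal. The members, gene lists and tests were chosen with earlier results of these data known. All probes of the members were named, with the 3 genes of highest r per tested member and at most 4 genes per list by size of change. Promoter windows were searched with Python 3.11.15.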

Additional observations from a re-analysis of the deposited data

Results flagged for a closer look

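The 2 arrays labelled excluded, IFN beta at 10 and at 100 IU/ml on the third date, carried Schlafen signal above every untreated sample, in data that no comparison uses. Slfn8 measured 3030 and 5280 on them, against at most 80.7 in untreated cells, and differed from the untreated cells of the same date by 5.67 and 6.47 on the log2 scale. The samples kept at these doses gave 101 and 81 at 10 IU/ml and 268 and 318 at 100 IU/ml. Slfn9 measured 4920 and 7970 on the 2 arrays, against at most 605 in untreated cells. Slfn2 measured 1230 and 1500, against at most 351. Slfn5, below background in all kept samples of these doses, measured 34 and 88.6, against at most 9.38. Slfn3 was not well above background on either array. The third-date sample at 1000 IU/ml IFN beta, which is not labelled excluded, was also the highest of its group for all 5 tested members, and what sets the third date apart was not tested.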

How the results depend on the processing

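Leaving out the third-date sample at 1000 IU/ml IFN beta changed more counts of called members than any other single sample in the comparisons below. The counts here cover all 5 tested members. Slfn3 and Slfn5 passed the filter only through 1000 IU/ml IFN epsilon, so counts that include their calls are a description only. At 1000 IU/ml of each interferon, Slfn2, Slfn8 and Slfn9 stayed called against untreated cells in all 19 fits that left out 1 sample. Over all samples left out in turn, the number of members called against untreated cells ranged from 0 to 2 at 10 IU/ml IFN epsilon, 3 to 3 at 100, 4 to 5 at 1000, 0 to 0 at 10 IU/ml IFN beta, 0 to 1 at 100 and 3 to 4 at 1000. Between the interferons it ranged from 0 to 0 at 10 and at 1000 IU/ml and from 0 to 2 at 100, and for the difference of differences from 0 to 0. Between IFN epsilon doses it ranged from 2 to 4 (1000 over 10), 0 to 2 (100 over 10) and 0 to 0 (1000 over 100), and between IFN beta doses from 2 to 3, 0 to 0 and 0 to 2 (1000 over 100). The date as a replicate block called 1 member at 10 IU/ml IFN epsilon and 1 at 100 over 10 IU/ml IFN epsilon, and beyond those given in the text changed no other call. With all 24 arrays, 0 members were called at 100 IU/ml IFN epsilon, at 1000 IU/ml IFN beta, for 1000 over 10 IU/ml of either interferon and for 1000 over 100 IU/ml IFN beta. Adding the replicate block to all 24 arrays, an alternative chosen after seeing the data, left 0 in the same comparisons except 1000 IU/ml IFN beta against untreated cells. In both of these fits Slfn2, Slfn8 and Slfn9 kept log2 fold changes of 2.69, 4.44 and 2.85 at 100 IU/ml IFN epsilon. For 1000 over 10 IU/ml IFN beta, which then takes in an excluded array, theirs fell to 1.58, 3.04 and 1.93. Fitted only to the groups compared, 2 members were called at 1000 IU/ml IFN beta, 0 for 1000 over 10 and 0 for 1000 over 100 IU/ml IFN beta. Median scaling called 1 member for 1000 over 10 IU/ml IFN epsilon and 1 for 1000 over 100 IU/ml IFN beta, the unfiltered fit 1 and the slide block 0 for the last. The share of all genes called is not given for these alternatives, apart from the replicate block without the excluded arrays. These counts therefore cannot tell a loss particular to the members from a loss of calls across all genes. The cause was not tested. In all, 487 alternative counts stayed within 1.5 times and 25 did not, 530 alternative values of single called genes stayed past the threshold and 76 did not, and none changed sign. Median scaling moved the median over all genes to -0.43 at 1000 IU/ml IFN epsilon and -0.19 at 1000 IU/ml IFN beta against untreated cells, and Slfn8 then had 5.24 and 4.97. Slfn2, Slfn8 and Slfn9 at 1000 IU/ml IFN epsilon passed under all 32 alternatives, with adjusted p values up to 0.0378, 0.0454 and 0.0327. Slfn1 and Slfn4 gave no signal over background, which sets only an upper bound.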
